A study of Mus musculus with 3 samples.

Results

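The nuclear-encoded genes of the respiratory chain were followed in 4 types of mouse brain neuron that had been labelled from the lumbar spinal cord. Members were taken by symbol: every gene starting with Nduf, Uqcr, Cox4i, Cox5, Cox6, Cox7, Cox8 or Atp5, together with Sdha, Sdhb, Sdhc and Sdhd. This gave 94 of the 32285 genes in the count tables. They fall into 37 complex I subunits, 8 complex I assembly factors, 4 complex II, 8 complex III and 20 complex IV genes and 17 ATP synthase genes. Ndufa4 and Ndufa4l2 were counted with complex IV, where the Ndufa4 protein is now placed.

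The respiratory chain sits in the inner mitochondrial membrane. Complexes I and II pass electrons from NADH and succinate to complex III and on to complex IV, which reduces oxygen, and the proton gradient built on the way drives ATP synthase. A few core subunits are encoded by mitochondrial DNA, and all the others are nuclear genes whose proteins are imported. Neurons with long axons depend on this pathway for ion pumping and transport. In nuclei, counts reflect RNA of these genes that had not yet left the nucleus, plus any cytoplasmic RNA that stayed with it.

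Nuclei came from uninjured C57BL/6 mouse brain, in 3 libraries that the labels number as biological replicates of a single group. Labelled regions were dissected under fluorescence, frozen and sorted as nuclei, and unique molecular identifiers (UMIs) were counted per gene and nucleus by droplet sequencing. No injury, treatment or second genotype was present, so the comparison is between neuron types within each library. The labels used here give neither the tracer, nor the age of the mice, nor the number of animals per library, so the spread between libraries may be technical in part.

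Barcodes counted as nuclei when they held 1000 genes or more and no more than 5% of their UMIs were mitochondrial, which left 2679, 2769 and 3579 in replicates 1, 2 and 3. They were typed in a fixed order by marker level in CPM, the UMIs of a gene relative to all UMIs of the nucleus, each gate asking for at least 2 UMIs. Cortical nuclei had Tox at 300 CPM or more (918, 1415 and 1793 nuclei). Red nucleus nuclei had Ttc6, Chst9 and Rreb1 at a sum of 150 CPM (127, 86 and 119), and hypothalamic nuclei had Sim1, or Ros1 with Rfx2, at 150 CPM (53, 44 and 52). Hindbrain nuclei had Meis1 and Meis2 at a sum of 200 CPM (913, 763 and 1106), and 668, 461 and 509 nuclei passed no gate. Many cortical nuclei also passed a later gate (388, 588 and 743) and stayed cortical by the order of the gates. The libraries shared between 2 and 10 barcodes in pairs.

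The type names were checked against markers outside the gates. Bcl11b, a factor of subcerebral projection neurons, stood at 188, 227 and 213 CPM in cortical nuclei and at no more than 43.6 CPM elsewhere. Pou4f1, a red nucleus factor, stood at 7.66, 20.7 and 24.5 CPM in red nucleus nuclei and at no more than 1.92 CPM elsewhere. The summed list of 6 red nucleus markers did not single out that type: it stood at 574 to 829.6 CPM in red nucleus, 568 to 699.97 CPM in hindbrain and 1527 to 1845 CPM in hypothalamic nuclei. Hcrt, which encodes orexin, reached 674 to 1092 CPM in hypothalamic nuclei and 27.0 to 128 CPM in the other types. Of the same list of 7 hypothalamic markers, Crh was higher in hindbrain nuclei (5.00, 11.4 and 13.5 CPM) than in hypothalamic nuclei (0, 7.21 and 6.13 CPM). Slc17a6 did not single out hypothalamic nuclei either. The list summed to 1201 to 1545 CPM in hypothalamic nuclei and 50.1 to 242 CPM in the other types. Lhx4 reached 23.4 to 29.0 CPM in hindbrain nuclei and at most 10.2 CPM elsewhere. The list of 8 hindbrain markers that holds Lhx4 summed to 334 to 357 CPM in hindbrain nuclei. It summed to 209 to 237 CPM in red nucleus, 196 to 218 CPM in hypothalamic and 17.3 to 22.7 CPM in cortical nuclei. Of this list, Slc17a6 was lower in hindbrain nuclei (92.9, 91.1 and 115 CPM) than in red nucleus nuclei (118, 102 and 119 CPM). Hoxb5 was nearly absent from hindbrain nuclei (0.256, 0.360 and 0 CPM). Slc1a2, an astrocyte transporter, and Mbp, a myelin gene, were highest in cortical nuclei (125 to 132 CPM and 49.3 to 62.5 CPM), and P2ry12, a microglial receptor, reached 71.1 CPM in red nucleus nuclei. The summed oligodendrocyte list ran from 55.6 to 68.9 CPM in cortical nuclei and from 19.1 to 55.9 CPM in the other types, and the summed microglia list from 20.5 to 37.3 CPM against 51.8 to 93.8 CPM. The summed astrocyte list stood at 126 to 135 CPM in cortical nuclei and 19.1 to 37.5 CPM in the other types. The summed endothelial and mural list was lowest in cortical nuclei by its median over libraries, with 4.50 to 7.29 CPM there, 4.24 to 17.9 CPM in red nucleus, 9.02 to 35.4 CPM in hypothalamic and 8.47 to 13.3 CPM in hindbrain nuclei, mostly from Pecam1 and Flt1. Cldn5, Kcnj8, C1qa and Tmem119, defining markers of endothelial, mural and microglial cells, stayed under 1 CPM in every type. The part of these markers in the results was not tested.

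The 94 members together made up between 0.232% and 0.485% of the UMIs of a type in a library. Their summed level was 2321, 3190 and 2789 CPM of all UMIs in cortical nuclei of replicates 1, 2 and 3. It was 3275, 4477 and 3972 CPM in red nucleus nuclei, 3195, 4854 and 4110 CPM in hypothalamic nuclei, and 3201, 4664 and 4091 CPM in hindbrain nuclei. On this scale cortical nuclei were the lowest type in each of the 3 libraries, and the other types overlapped one another. On the TMM scale used below for single genes, which corrects for differences in composition between sums, the order was another. Cortical nuclei stood at 2962, 3921 and 3505 CPM there and hypothalamic nuclei at 2898, 4135 and 3476 CPM, so hypothalamic nuclei were lower in replicates 1 and 3. Replicate 1 was the lowest and replicate 2 the highest library in every type on both scales.

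Counted per nucleus, cortical nuclei were not the lowest. They held 34.0, 103 and 61.1 member UMIs on average, the highest mean in each library, though nearly level with red nucleus nuclei in replicate 1. Red nucleus nuclei held 33.7, 98.2 and 55.9, hindbrain nuclei 27.4, 85.02 and 49.8, and hypothalamic nuclei 22.1, 61.2 and 38.7. Cortical nuclei were also the deepest, with a median of 12640, 26866 and 19455 UMIs against 6037, 11078 and 8594 in hypothalamic nuclei. By the median nucleus, cortical nuclei held 31, 92 and 57 member UMIs and red nucleus nuclei 34, 90 and 52, so that red nucleus nuclei were higher in replicate 1.

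**Figure D1:**
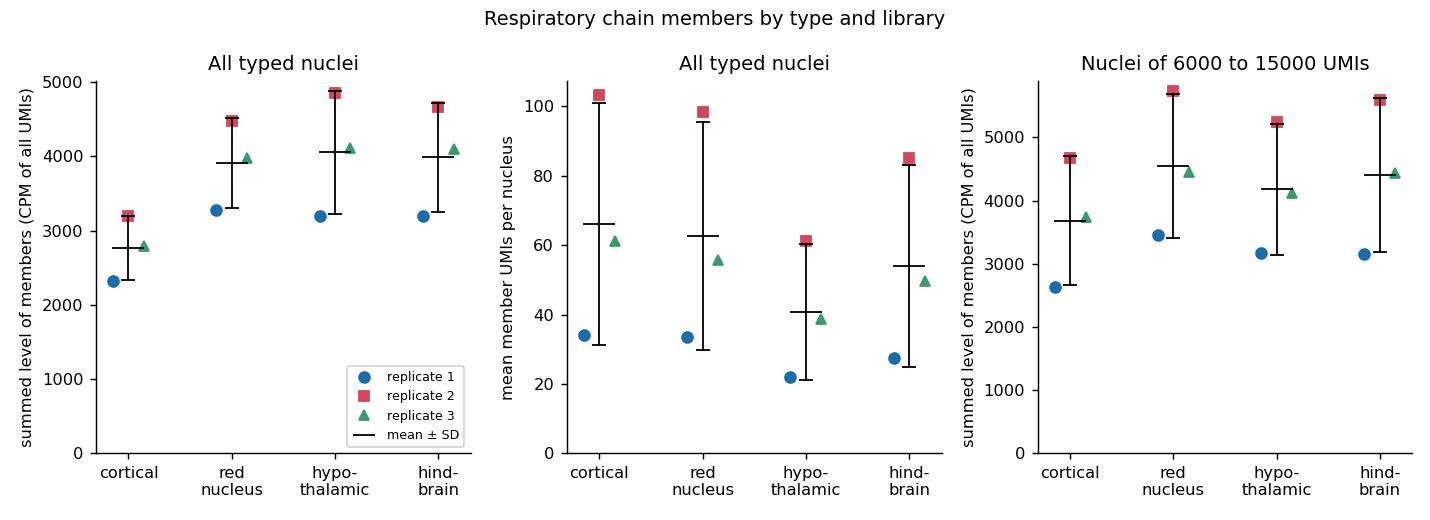
Summed level of the 94 members in CPM of all UMIs (left, all typed nuclei; right, nuclei of 6000 to 15000 UMIs) and mean member UMIs per nucleus (middle), by type. Points are the 3 libraries and bars the mean ± SD; cortical nuclei are lowest on the left, at 2321 to 3190 CPM, and highest in the middle, at 34.0 to 103 UMIs.

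Depth within a type moved with the summed level as well. In cortical nuclei of replicate 2 the members summed to 6406 CPM in nuclei under 6000 UMIs, 4672 CPM at 6000 to 15000 UMIs and 3077 CPM at 15000 UMIs or more. Hindbrain nuclei of the same library gave 7012, 5600 and 4311 CPM. The level fell from the shallowest to the deepest of these 3 ranges in every type and library, although 7 of the 36 ranges held fewer than 20 nuclei. At 6000 to 15000 UMIs, a range chosen after the data had been seen, the summed level was 2633, 4672 and 3748 CPM in cortical nuclei and 3163, 5600 and 4440 CPM in hindbrain nuclei. Cortical nuclei were the lowest type there too in each library. This range is called like depth here, although the median of its nuclei was still 10302, 11574 and 11316 UMIs in cortical and 7866, 10428 and 9594.5 UMIs in hypothalamic nuclei.

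**Figure D2:**
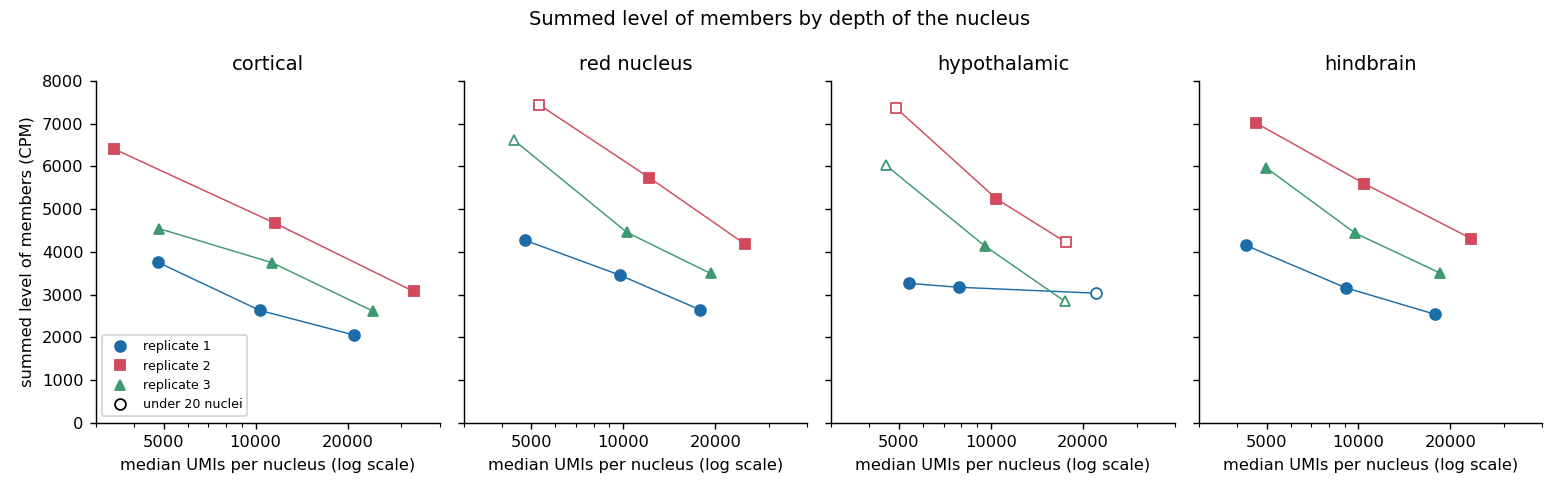
Summed level of the members (CPM of all UMIs) against the median UMIs per nucleus (log scale) of 3 depth ranges, under 6000, 6000 to 15000 and 15000 UMIs or more, for each type and library. Open points rest on fewer than 20 nuclei; in cortical nuclei of replicate 2 the level goes from 6406 to 3077 CPM.

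Single genes were tested on UMIs summed per library and type, with the library as a block, setting each type against the log-scale average of the 3 remaining types. Calls are edgeR quasi-likelihood tests whose p, adjusted by Benjamini-Hochberg across 16185 genes, fell under 0.05, and levels of single genes are CPM on the scale of its TMM factors. The filter on low counts left 88 members. The other 6 (Cox6a2, Cox6b2, Cox7a1, Cox8b, Cox8c and Ndufa4l2) had between 2 and 93 UMIs in all typed nuclei. The 4 comparisons use the same 12 sums, so a member that stands out in 1 type also shifts the other comparisons. Where the values of a type are said to lie above or below all others, this describes that member. The share of all tested genes that do so was not counted.

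In cortical nuclei 38 of the 88 members were lower and 11 higher, where 28.2% of all tested genes were called lower and 28.9% higher. The median log2 fold change of the members was -0.22, against -0.03 for all tested genes. Red nucleus nuclei had 7 members higher and 0 lower, close to the 10.4% and below the 8.63% of all genes. Hypothalamic nuclei had 2 members higher and 5 lower, where all genes gave 7.72% and 9.74%. Hindbrain nuclei had 0 members called in edgeR or in DESeq2, where all genes gave 10.2% higher and 7.11% lower, and 10 members were higher and 0 lower in edgeR at an unadjusted p under 0.05. No member was called with a log2 fold change of 1 or more in any of these 4 comparisons. Among all genes such calls made up 9.24% higher and 13.4% lower in cortical, 4.86% and 2.34% in red nucleus, 4.57% and 3.37% in hypothalamic, and 3.52% and 1.29% in hindbrain nuclei.

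These counts moved with the scaling, the depth and the libraries. Scaled to total UMIs alone, the median of all genes in cortical nuclei shifted to -0.47 and that of members to -0.66, and 72 members were lower and 0 higher (all genes, 52.2% and 13.2%). On that scale 8 were higher and 0 lower in red nucleus nuclei (11.1% and 7.51%), 13 and 2 in hypothalamic nuclei (15.9% and 4.42%), and 21 and 0 in hindbrain nuclei (18.2% and 4.02%). The members lay 0.19 below all genes on either scale. In nuclei of 6000 to 15000 UMIs, 3 members were lower and 7 higher in cortical nuclei (all genes, 19.4% and 22.1%), with a median of 0.00. There 4 were higher and 0 lower in red nucleus nuclei (6.16% and 3.99%), 0 and 5 in hypothalamic nuclei (5.23% and 5.75%), and 0 and 0 in hindbrain nuclei (6.59% and 4.95%). Leaving out replicate 1, 2 or 3 left 20, 26 and 19 members lower in cortical nuclei, and 4, 2 and 4 higher in red nucleus nuclei. Without the library block, 10 were lower and 6 higher in cortical nuclei, 2 higher in red nucleus nuclei, and 3 lower and 0 higher in hypothalamic nuclei. Shares of all genes were not counted with a replicate left out or without the block.

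Complex I takes electrons from NADH and is the largest complex of the chain. Of its 37 subunit genes, 19 were lower and 3 higher in cortical nuclei, with a median log2 fold change of -0.28, where all genes gave 28.2% and 28.9%. At like depth 2 were lower and 2 higher, with a median of -0.04 (all genes, 19.4% and 22.1%). Ndufs4, an accessory subunit whose loss in mice causes a Leigh-like brain disease, had the highest level of the group, with 124, 139 and 139 CPM in cortical nuclei, 121, 169 and 164 CPM in red nucleus nuclei, 111, 101 and 104 CPM in hypothalamic nuclei and 130.4, 143 and 141 CPM in hindbrain nuclei. The 3 hypothalamic values lay below all others, and the gene was called lower there, with a log2 fold change of -0.44 ± 0.11 (SE; adjusted p = 0.00932, edgeR), and higher in red nucleus nuclei, at 0.29 ± 0.08 (adjusted p = 0.0165), where 2 of 3 libraries showed the direction.

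Ndufa10, an accessory subunit of the membrane arm, showed the same order more widely. It stood at 59.6, 76.6 and 69.9 CPM in cortical nuclei, 79.4, 99.4 and 79.4 CPM in red nucleus nuclei, 32.1, 53.8 and 39.8 CPM in hypothalamic nuclei and 65.3, 79.1 and 73.3 CPM in hindbrain nuclei. Within each library red nucleus nuclei were highest and hypothalamic nuclei lowest. The log2 fold change was 0.52 ± 0.09 in red nucleus nuclei (adjusted p = 0.000386, edgeR) and -0.82 ± 0.14 in hypothalamic nuclei (adjusted p = 0.000353), each seen in 3 of 3 libraries. At 6000 to 15000 UMIs the values were 0.65 and -0.85. Red nucleus nuclei exceeded hypothalamic nuclei by 1.01 ± 0.15 in the direct comparison (adjusted p = 0.000172, edgeR). Ndufs1, the iron-sulfur subunit that shares the top of the group, differed little and was called in no type, with 84.1 ± 8.94 CPM in cortical (SD, n = 3) and 76.3 ± 8.91 CPM in hindbrain nuclei.

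The complex I genes that were higher in cortical nuclei were Ndufv2, Ndufs3 and Ndufa9. Ndufv2, an iron-sulfur subunit of the NADH-binding module, stood at 74.5, 80.6 and 74.6 CPM in cortical nuclei, 50.2, 56.9 and 55.0 CPM in red nucleus nuclei, 39.5, 55.3 and 45.0 CPM in hypothalamic nuclei and 50.3, 64.4 and 64.3 CPM in hindbrain nuclei. All 3 cortical values lay above all 9 others, with a log2 fold change of 0.52 ± 0.08 (adjusted p = 2.02e-05, edgeR) and 0.32 at 6000 to 15000 UMIs (adjusted p = 0.0298). Ndufs3, a core subunit, also did not overlap between cortical nuclei (50.4, 48.7 and 56.8 CPM) and the other types, at 0.40 ± 0.09 (adjusted p = 0.000725). Ndufv2, Ndufs3 and Ndufa9 were named for their direction after their values had been seen.

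Among the 19 that were lower in cortical nuclei, Ndufs8, Ndufb11, Ndufa13 and Ndufa6 had the largest changes. Ndufs8, an iron-sulfur core subunit, was at 6.42 ± 1.49 CPM in cortical nuclei (SD, n = 3), with a log2 fold change of -0.72 ± 0.19 (adjusted p = 0.00412, edgeR). Ndufb11 and Ndufa13, accessory subunits of the membrane arm, followed at -0.66 and -0.62. At like depth Ndufs8, Ndufb11 and Ndufa13 were at -0.54, -0.15 and -0.23 and lost their calls (adjusted p = 0.192, 0.588 and 0.274, edgeR). Ndufb11 was also called higher in hypothalamic nuclei, at 14.8, 27.6 and 25.9 CPM and 0.97 ± 0.25 (adjusted p = 0.0105, edgeR), a call lost at 6000 to 15000 UMIs (0.58, adjusted p = 0.341).

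Ndufa6, an accessory subunit of the matrix arm, and Ndufb2, of the membrane arm, were also called lower in the nuclei of like depth. Ndufa6 stood at 20.3, 41.0 and 34.6 CPM in cortical nuclei and 37.5, 60.9 and 46.2 CPM in hindbrain nuclei, so within each library cortical nuclei were the lower of both. Its log2 fold change was -0.58 ± 0.12 over all nuclei (adjusted p = 0.000368, edgeR) and -0.46 at like depth (adjusted p = 0.0162). Ndufb2 stood at 18.7, 26.9 and 26.7 CPM in cortical nuclei, 32.4, 33.3 and 45.4 CPM in red nucleus nuclei, 42.0, 30.7 and 39.8 CPM in hypothalamic nuclei and 26.6, 35.9 and 39.0 CPM in hindbrain nuclei. It was lowest in cortical nuclei in each library, at -0.56 ± 0.11 (adjusted p = 0.000252, edgeR), and kept its call under all 14 alternatives. Ndufb2 was named for that after the values had been seen. It overlaps 3 other gene models (Braf, Gm16272 and Gm42420), 1 on the same strand and 2 on the other. Ndufa11 was called higher in red nucleus nuclei (0.41 ± 0.13, adjusted p = 0.0364, edgeR) but not at like depth (0.30, adjusted p = 0.458).

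Complex I assembly factors help build the complex and are not part of it. Of the 8, 2 were higher and 2 lower in cortical nuclei (all genes, 28.9% and 28.2%). In red nucleus nuclei 1 was higher (all genes, 10.4%), and in hypothalamic nuclei 1 was lower (9.74%). At like depth 0 were higher and 1 lower in cortical nuclei (all genes, 22.1% and 19.4%). Ndufaf2 is a chaperone of a late assembly step. It stood at 126, 114 and 122 CPM in cortical nuclei, 143, 129 and 130.4 CPM in red nucleus nuclei, 76.6, 63.0 and 64.0 CPM in hypothalamic nuclei and 101, 90.7 and 89.8 CPM in hindbrain nuclei. The 4 types did not overlap with one another, and the order from highest to lowest was red nucleus, cortical, hindbrain and hypothalamic. How often all tested genes separate in this way was not counted. Red nucleus and cortical nuclei, the highest neighbours in that order, did not pass the threshold in the direct test (log2 fold change -0.15 ± 0.07 for cortical against red nucleus, adjusted p = 0.113, edgeR).

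The log2 fold change of Ndufaf2 was 0.55 ± 0.07 in red nucleus nuclei (adjusted p = 2.52e-05, edgeR) and -0.77 ± 0.11 in hypothalamic nuclei (adjusted p = 6.05e-05). Both calls held under all 14 alternatives, with values of 0.53 to 0.74 and -0.86 to -0.49. The value in cortical nuclei was 0.35 ± 0.06 (adjusted p = 0.000111), which turned to -0.08 with total UMI scaling and was 0.09 at like depth (adjusted p = 0.476). The gene spans 155.91 kb on the minus strand (chr13:108002715-108158623, GRCm38) and overlaps Smim15 and B230220B15Rik on the other strand. Ndufaf3, an early assembly factor, was scarce, with 4.18, 5.10 and 4.45 CPM in cortical nuclei, 8.10, 7.17 and 9.64 CPM in red nucleus nuclei, 9.88, 15.4 and 5.19 CPM in hypothalamic nuclei and 7.55, 8.50 and 8.73 CPM in hindbrain nuclei. Cortical values lay below all others, but only narrowly. The closest were 5.10 CPM in cortical replicate 2 and 5.19 CPM in hypothalamic replicate 3, a sum of only 489529 UMIs. The log2 fold change was -0.95 ± 0.21 (adjusted p = 0.00077, edgeR) and -0.95 at like depth (adjusted p = 0.0302). Ndufaf3 reached the 10 CPM asked for naming only through its widely spread hypothalamic values, and it overlaps Impdh2 on the other strand. Ndufaf7, a methyltransferase needed for assembly, was called in no type and had 92.3 ± 14.6 CPM in cortical nuclei (SD, n = 3).

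**Figure D3:**
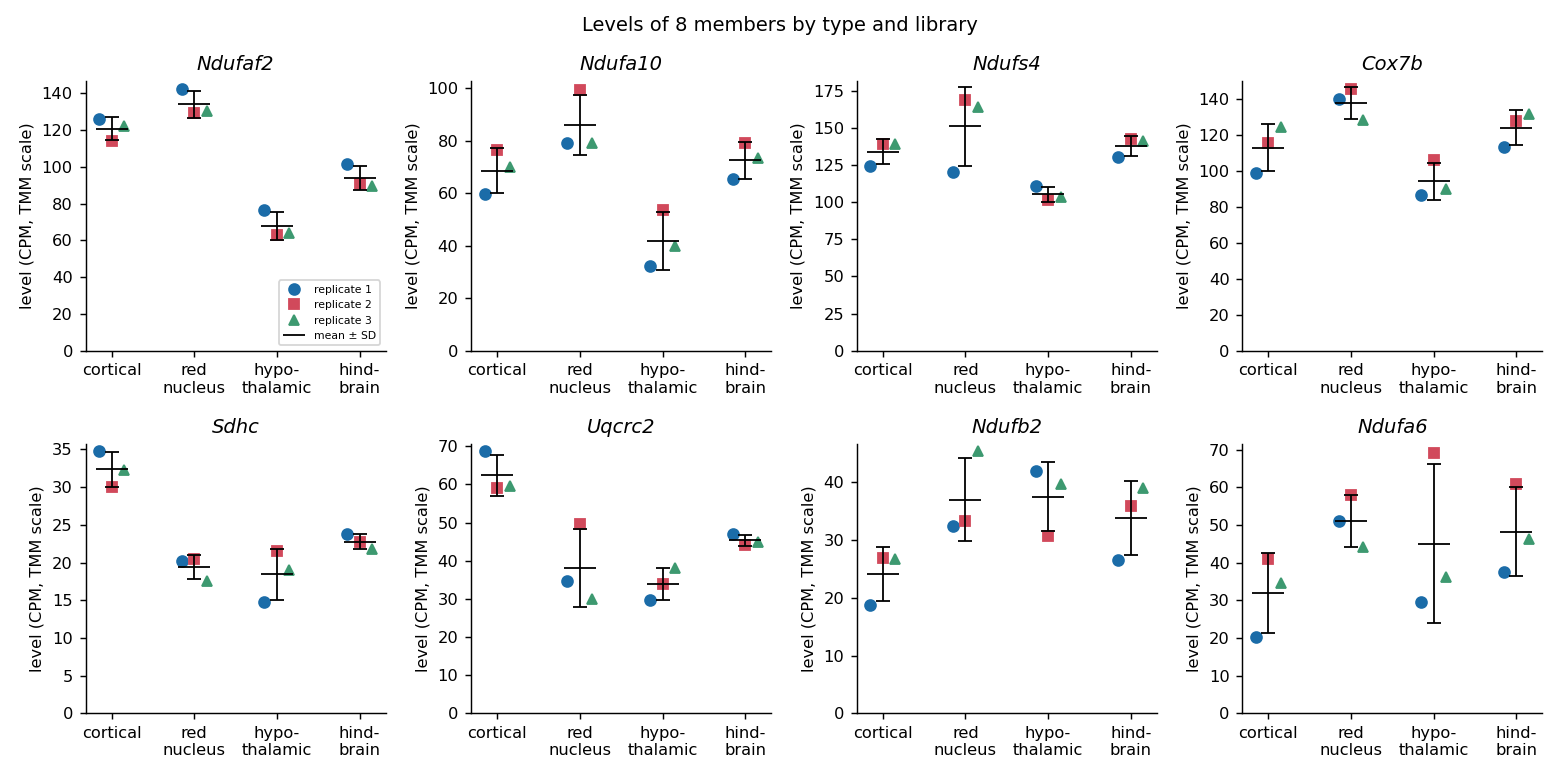
Levels of 8 members (CPM on the TMM scale of the test) by type; points are the 3 libraries and bars the mean ± SD. Ndufaf2 does not overlap between any 2 types, Ndufa10 and Ndufs4 are lowest in hypothalamic nuclei, and Sdhc and Uqcrc2 are highest in cortical nuclei.

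Complex II oxidises succinate and is the only complex with no mitochondrially encoded subunit. Of its 4 genes, 1 was called, higher in cortical nuclei, where 28.9% of all genes were called higher. Sdhc, a membrane anchor, stood at 34.8, 30.1 and 32.3 CPM in cortical nuclei, 20.2, 20.5 and 17.6 CPM in red nucleus nuclei, 14.8, 21.5 and 19.0 CPM in hypothalamic nuclei and 23.8, 22.7 and 21.9 CPM in hindbrain nuclei. All 3 cortical values lay above all 9 others, with a log2 fold change of 0.66 ± 0.10 (adjusted p = 2.74e-05, edgeR) and 0.55 at like depth (adjusted p = 0.0145). The other anchor, Sdhd, was at 9.65 ± 0.560 CPM in cortical nuclei (SD, n = 3) with a log2 fold change of -0.30 ± 0.15 (adjusted p = 0.109, edgeR). The catalytic subunits Sdha and Sdhb, at 74.1 ± 2.50 and 43.0 ± 6.15 CPM in cortical nuclei, were called in no type, with log2 fold changes of 0.08 and -0.06 there. The difference between Sdhc and the other 3 genes was not tested.

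Complex III carries electrons from ubiquinol to cytochrome c. Of its 8 genes, 2 were higher and 3 lower in cortical nuclei (all genes, 28.9% and 28.2%), and 1 was higher in red nucleus nuclei (10.4%). At like depth 2 were higher and 0 lower in cortical nuclei (all genes, 22.1% and 19.4%). The genes that were higher encode the core proteins. Uqcrc2 stood at 68.6, 59.0 and 59.6 CPM in cortical nuclei, 34.8, 49.7 and 30.1 CPM in red nucleus nuclei, 29.6, 33.8 and 38.0 CPM in hypothalamic nuclei and 47.0, 44.0 and 45.0 CPM in hindbrain nuclei. Cortical values lay above all others, with a log2 fold change of 0.66 ± 0.10 (adjusted p = 3.03e-05, edgeR) and 0.54 at like depth (adjusted p = 0.00237). Uqcrc1 stood at 75.2 ± 9.65 CPM in cortical nuclei (SD, n = 3), at 0.34 ± 0.08 (adjusted p = 0.00116, edgeR) and 0.59 at like depth (adjusted p = 0.000162), and its cortical values overlapped those of other types. With total UMI scaling it was -0.09.

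The small subunit Uqcrq went the other way, with 19.0, 35.5 and 27.7 CPM in cortical nuclei and 34.6, 51.3 and 41.8 CPM in hindbrain nuclei. Its log2 fold change was -0.59 ± 0.09 in cortical nuclei (adjusted p = 3.28e-05, edgeR), and -0.22 at like depth (adjusted p = 0.230). Uqcrh, the hinge protein, was called in no type, at 47.9 ± 3.85 CPM in cortical nuclei (SD, n = 3). Uqcrfs1, the Rieske iron-sulfur protein, was called higher in red nucleus nuclei, with 16.2, 21.0 and 22.1 CPM and 0.49 ± 0.17 (adjusted p = 0.0488, edgeR), a call that 9 of 14 alternatives lost.

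Complex IV, cytochrome c oxidase, has several subunits that come in paralogs of different tissues. Of 14 tested genes, 7 were lower and 0 higher in cortical nuclei (all genes, 28.2% and 28.9%). At like depth 0 of 13 were called there (all genes, 19.4% lower and 22.1% higher). Cox7b, a small subunit, was called higher in red nucleus and lower in hypothalamic nuclei. It stood at 98.7, 116 and 124 CPM in cortical nuclei, 140.1, 146 and 128 CPM in red nucleus nuclei, 86.5, 106 and 89.9 CPM in hypothalamic nuclei and 113, 128 and 131 CPM in hindbrain nuclei. Hypothalamic nuclei were lowest in each library. The log2 fold changes were 0.32 ± 0.08 (adjusted p = 0.0103, edgeR) and -0.40 ± 0.12 (adjusted p = 0.0241), and at like depth 0.45 and -0.72. Its testis-type paralog Cox7b2 stood at 6.40 ± 1.16 CPM in cortical nuclei (SD, n = 3) and was called in no type.

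The common isoforms dominated the other paralog groups. Cox4i1 stood at 95.9 ± 35.3 CPM in cortical and 126 ± 34.8 CPM in red nucleus nuclei, while Cox4i2, the isoform best known from lung, was at 1.12 to 2.34 CPM. Cox6a1 had 229 to 1466 UMIs per library in cortical nuclei, against 4 to 6 UMIs for Cox6a2, the isoform of heart and skeletal muscle. Cox7a2 had 282 to 1519 UMIs there, against 3 to 33 for the muscle isoform Cox7a1. Cox6b1 had 376 to 1587 UMIs, while Cox6b2 had 8, 4 and 5. Cox8a had 445 to 2858 UMIs in the cortical sums. Cox8b was found in 4 and Cox8c in 2 UMIs over all typed nuclei.

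Of these common isoforms, Cox4i1, Cox6a1, Cox7a2 and Cox8a were lower in cortical nuclei, with log2 fold changes of -0.32, -0.28, -0.50 and -0.44. Cox6b1 and Cox7a2l, a gene for the assembly of supercomplexes, were not called. At like depth the values were 0.16, -0.10, -0.12 and -0.15, and none was called. Ndufa4 was also lower in cortical nuclei (-0.28 ± 0.09, adjusted p = 0.0104, edgeR), and 0.09 at like depth. Cox7a2 was called higher in hypothalamic nuclei (0.53 ± 0.16, adjusted p = 0.0291, edgeR), with 0.03 at like depth (adjusted p = 0.957).

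ATP synthase uses the proton gradient to make ATP. Of its 17 genes, 7 were lower and 3 higher in cortical nuclei (all genes, 28.2% and 28.9%). In red nucleus nuclei 1 was higher (10.4%), and in hypothalamic nuclei 1 was lower (9.74%). At like depth 0 were lower and 2 higher in cortical nuclei (all genes, 19.4% and 22.1%). There 1 was higher in red nucleus nuclei (6.16%) and 0 lower in hypothalamic nuclei (5.75%). Atp5a1 and Atp5b encode the alpha and beta subunits of the catalytic head. Atp5a1 stood at 93.1, 177 and 121 CPM in red nucleus nuclei and 78.0, 149 and 113 CPM in hindbrain nuclei, and red nucleus nuclei were highest in each library. Its log2 fold change there was 0.34 ± 0.07 (adjusted p = 0.00307, edgeR) and 0.41 at like depth (adjusted p = 0.0357). Atp5b was called in no type, at 69.4 ± 10.95 CPM in cortical and 79.6 ± 8.34 CPM in red nucleus nuclei (SD, n = 3).

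The genes that were higher in cortical nuclei were Atp5c1, Atp5d and Atp5l, for the gamma and delta subunits of the rotor stalk and the g subunit of the membrane part. Atp5c1 stood at 79.4, 86.2 and 79.3 CPM in cortical nuclei, 70.5, 89.2 and 60.1 CPM in red nucleus nuclei, 42.0, 50.7 and 58.8 CPM in hypothalamic nuclei and 57.7, 69.9 and 58.8 CPM in hindbrain nuclei. It was highest in cortical nuclei in 2 of 3 libraries and lowest in hypothalamic nuclei in 3 of 3, though nearly level with hindbrain nuclei in replicate 3. Its log2 fold change was 0.41 ± 0.08 in cortical nuclei (adjusted p = 0.000329, edgeR), with 0.18 at like depth (adjusted p = 0.252). Atp5l, named with Atp5d because its call held at like depth, had cortical values of 72.4, 72.9 and 67.7 CPM that lay above all others, at 0.29 ± 0.08 (adjusted p = 0.00533, edgeR). With total UMI scaling Atp5c1, Atp5d and Atp5l were -0.02, -0.10 and -0.14. Atp5g1, Atp5g2 and Atp5g3 encode the same mature c subunit: Atp5g2 and Atp5g3 were lower in cortical nuclei (-0.35 and -0.44; at like depth -0.45 and -0.26, neither called, adjusted p = 0.0638 and 0.165), and Atp5g1, the most abundant of them, was not called (-0.15 ± 0.09, adjusted p = 0.152, edgeR).

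The members that were higher and lower in cortical nuclei differed in gene length, which the choice of members did not use. The 11 higher members had a median length of 23.4 kb (7.19 to 155.91 kb), the 38 lower members 5.22 kb (1.21 to 14.6 kb) and the 39 not called 9.29 kb. Across the 88 members the cortical log2 fold change followed log10 gene length with Pearson's r of 0.67 and Spearman's rho of 0.66. At like depth r was 0.32 over 87 members. In hypothalamic and hindbrain nuclei r was -0.39 and -0.41, and in red nucleus nuclei -0.08, and at like depth these were -0.01, -0.20 and -0.15. These are descriptions across genes that share libraries and depths, and genes are not independent replicates.

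**Figure D4:**
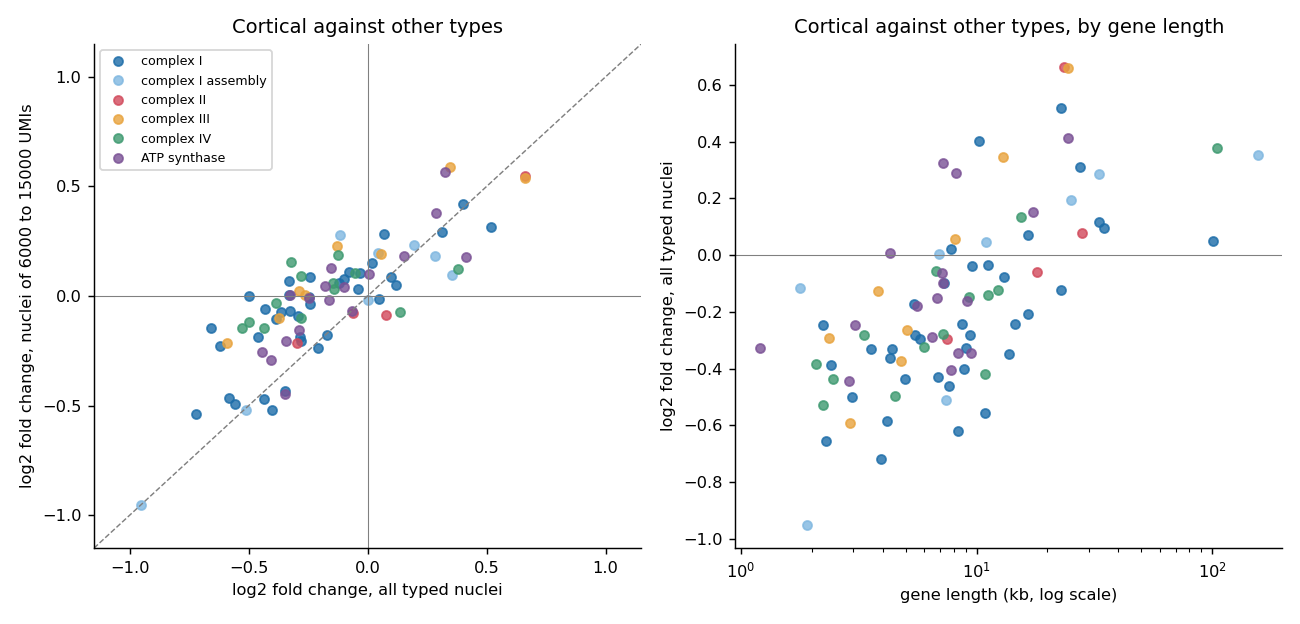
Cortical log2 fold change of each member at 6000 to 15000 UMIs against that over all typed nuclei (left; dashed line, equal values; 87 members) and that over all typed nuclei against gene length in kb on a log scale (right; 88 members); colours mark the complexes. Most points left of 0 lie above the dashed line, less negative at like depth, and long genes sit higher on the right, with r of 0.67.

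Barcodes with too few genes to be kept held members at higher levels than nuclei did. In replicate 2, where 8324 barcodes had under 1000 genes, the median member that was lower in cortical nuclei stood at 7.82 times its level in typed nuclei there, and the median member that was higher at 3.27 times. Across the 88 members the cortical log2 fold change ran against this ratio with r of -0.59, and -0.28 at like depth. The typed nuclei that the ratio divides by were mostly cortical by UMIs. In replicate 2 cortical nuclei held 45768766 UMIs, against 1887404 in red nucleus, 554629 in hypothalamic and 13907201 in hindbrain nuclei. A member lower in cortical nuclei thus had a higher ratio in part by construction. The size of that part in r and in the split of the ratios was not tested. Cytosolic ribosomal protein genes summed to 1151, 1849 and 1658 CPM in cortical nuclei and 2003, 3125 and 2945 CPM in hindbrain nuclei, so cortical nuclei were below hindbrain nuclei for both sets in each library. The order of the other types differed between the sets: in replicate 1 the ribosomal sum was 2406 CPM in hypothalamic and 1803 CPM in red nucleus nuclei, where the members stood at 3195 and 3275 CPM. The members were 1.81 ± 0.18 times the ribosomal sum in cortical nuclei (SD, n = 3), 1.62 ± 0.20 in red nucleus, 1.49 ± 0.10 in hindbrain and 1.22 ± 0.13 in hypothalamic nuclei. The part of free RNA in the results was not tested.

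Levels between members were compared per kb of gene, as the mean of the 4 types. Cox7c was highest at 47.6 CPM per kb, followed by Cox8a at 31.3 and Atp5k at 31.2, all short genes of small subunits. Ndufaf2 was near the other end at 0.668 CPM per kb. Whether introns were counted is not given in the sources used here, and per kb of annotated exon the order was another, with Cox8a at 125, Cox7b at 96.6, Cox7c at 88.0 and Ndufaf2 at 35.0 CPM per kb. Of the 94 members, 42 overlap another gene model and 34 overlap one on the opposite strand, and whether counting used strand is not given in the sources used here. Processed copies of such genes are common in the genome, and how reads that match several places were counted is not given either.

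Other genes of mitochondrial energy supply were followed in lists. Of 43 tested electron carriers and assembly genes outside the symbol rule, 9 were higher and 17 lower in cortical nuclei (all genes, 28.9% and 28.2%), and at like depth 6 and 5 of 42 (all genes, 22.1% and 19.4%). Sdhaf2, which attaches the cofactor of Sdha, was higher in cortical nuclei (38.7 ± 6.78 against 22.0 CPM, log2 fold change 0.86, adjusted p = 1.62e-06, edgeR). Coa5 and Higd2a of this list were lower there, with log2 fold changes of -1.33 and -0.80 (adjusted p = 7.08e-06 and 0.000111, edgeR). At like depth Sdhaf2, Coa5 and Higd2a kept their calls, at 0.65, -0.79 and -0.50. Of 78 mitochondrial ribosomal protein genes, 5 were higher and 29 lower in cortical nuclei, and of 82 cytosolic ones 1 and 64 (all genes, 28.9% and 28.2%). At like depth 2 were higher and 8 lower of 77 mitochondrial ones, and 1 and 12 of 82 cytosolic ones (all genes, 22.1% and 19.4%). Of the 10 tested mitochondrially encoded transcripts, 0 were called in cortical nuclei (edgeR; all genes, 28.9% higher and 28.2% lower). At like depth 1 of 8 was higher and 0 lower there (22.1% and 19.4%). In red nucleus nuclei 1 of the 10 was higher (10.4%), and in hypothalamic nuclei 1 was lower (9.74%). The complex IV core gene mt-Co1 was higher in red nucleus nuclei (66.9 ± 7.41 against 48.0 CPM, log2 fold change 0.51, adjusted p = 0.000805, edgeR) and lower in hypothalamic nuclei (37.7 ± 5.78 against 57.7 CPM, log2 fold change -0.60, adjusted p = 0.00708). Mitochondrial UMIs can come from outside the nucleus, and they made up between 0.0112% and 0.0224% of the UMIs of a type.

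Regulators of mitochondrial biogenesis included calls past a log2 fold change of 1, which no called member reached. Of 16, 6 were higher and 3 lower in cortical nuclei (all genes, 28.9% and 28.2%). In red nucleus nuclei 2 were higher (10.4%), and in hypothalamic nuclei 6 were lower (9.74%). At like depth 5 were higher and 3 lower in cortical nuclei (all genes, 22.1% and 19.4%). There 2 were higher in red nucleus nuclei (6.16%) and 4 lower in hypothalamic nuclei (5.75%). Ppargc1a, the coactivator that drives respiratory chain genes, was higher in cortical nuclei (230.5 ± 25.0 against 101 CPM, log2 fold change 1.22, adjusted p = 8.8e-11, edgeR). Its relative Ppargc1b was higher in cortical nuclei as well (109 ± 8.11 against 46.3 CPM, log2 fold change 1.29, adjusted p = 1.34e-09, edgeR) and lower in hypothalamic nuclei (27.9 ± 4.36 against 73.3 CPM, log2 fold change -1.31, adjusted p = 8.1e-05, edgeR). Esrrg, an orphan nuclear receptor that acts with these coactivators, was higher in red nucleus nuclei (967 ± 13.1 against 389.6 CPM, log2 fold change 1.35, adjusted p = 2.37e-11, edgeR). At like depth Ppargc1a in cortical and Esrrg in red nucleus nuclei were at 1.02 and 1.27.

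The pathways that feed the chain gave mixed counts. Of 18 tricarboxylic acid cycle genes, 5 were higher and 3 lower in cortical nuclei (all genes, 28.9% and 28.2%), and 6 higher and 0 lower in red nucleus nuclei (10.4% and 8.63%). At like depth 1 was higher and 2 lower in cortical nuclei (22.1% and 19.4%), and 1 higher and 0 lower in red nucleus nuclei (6.16% and 3.99%). Dlat, a subunit of pyruvate dehydrogenase, was higher in red nucleus nuclei (102 ± 15.6 against 76.1 CPM, log2 fold change 0.46, adjusted p = 0.00176, edgeR) and lower in hypothalamic nuclei (56.0 ± 8.73 against 91.3 CPM, log2 fold change -0.69, adjusted p = 0.00180, edgeR). At like depth Dlat lost both calls (0.41 and -0.51, adjusted p = 0.0635 and 0.0876, edgeR). Idh3g was also higher in red nucleus nuclei, at 0.60 (adjusted p = 0.00130, edgeR) and 0.65 at like depth (adjusted p = 0.0313). Of 16 glycolysis genes, 8 were higher and 4 lower in cortical nuclei (all genes, 28.9% and 28.2%), and at like depth 7 and 1 (22.1% and 19.4%). Pfkp and Pfkm, isoforms of phosphofructokinase, were both higher in cortical nuclei, with log2 fold changes of 0.89 and 0.86. Ldha, a subunit of lactate dehydrogenase, was lower in red nucleus nuclei (7.60 ± 0.991 against 19.4 CPM, log2 fold change -1.38, adjusted p = 0.000817, edgeR).

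In direct comparisons of pairs of types, most member calls came from the pairs with cortical nuclei. The shares of all genes called were also larger in each of these pairs than in the other pairs. Cortical nuclei had 5 members higher and 28 lower than red nucleus nuclei (all genes, 23.2% and 23.1%), and 10 higher and 35 lower than hindbrain nuclei (28.0% and 30.1%). Against hypothalamic nuclei they had 10 higher and 12 lower (20% and 16.8%). Red nucleus nuclei had 5 higher and 1 lower than hypothalamic nuclei (6.98% and 5.44%) and 1 higher and 0 lower than hindbrain nuclei (5.92% and 5.1%). Hypothalamic nuclei had 0 higher and 3 lower than hindbrain nuclei (3.64% and 4.73%).

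Many respiratory chain promoters are known to carry sites of NRF1 and of the ETS factor GABPA, so the 250 bases before each RefSeq start (GRCm38.p6) were searched on both strands. A RefSeq promoter was at hand for 75 members. The NRF1 core GCGCATGC (reverse GCATGCGC) was found in 9 of the 75, or 12%, against 2.56% of 27025 genes. The GABPA core CCGGAAG (reverse CTTCCGG) was found in 14, or 18.7%, against 7.83%. Both comparisons use all genes with a RefSeq promoter, whether or not they passed the filter on low counts. Shares among the 16185 tested genes were not counted. Of the 32 members with a promoter that were lower in cortical nuclei, 5 had the NRF1 core and 5 the GABPA core, and of the 9 that were higher, 1 and 2. Promoters are shown for 3 called members with an NRF1 core, with matches in capitals and only the bases that no annotated exon covers. Atp5l, higher in cortical nuclei, holds both cores (chr9:44920752-44920992, minus strand, 241 bases). Ndufa6, lower in cortical nuclei, holds 1 NRF1 core (chr15:82354323-82354541, minus strand, 219 bases). Ndufa11, called higher in red nucleus nuclei and also lower in cortical nuclei, holds 2 overlapping NRF1 cores on opposite strands (chr17:56717686-56717761, plus strand, 76 bases). A match is a run of letters and does not show binding.
Atp5l: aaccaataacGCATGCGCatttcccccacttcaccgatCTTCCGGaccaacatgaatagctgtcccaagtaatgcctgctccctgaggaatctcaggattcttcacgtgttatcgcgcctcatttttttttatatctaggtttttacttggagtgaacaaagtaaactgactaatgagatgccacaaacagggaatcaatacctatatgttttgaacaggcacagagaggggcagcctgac
Ndufa6: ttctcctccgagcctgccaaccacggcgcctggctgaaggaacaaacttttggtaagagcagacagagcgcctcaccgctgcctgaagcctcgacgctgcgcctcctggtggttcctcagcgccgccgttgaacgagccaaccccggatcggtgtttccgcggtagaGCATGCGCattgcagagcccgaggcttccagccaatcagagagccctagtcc
Ndufa11: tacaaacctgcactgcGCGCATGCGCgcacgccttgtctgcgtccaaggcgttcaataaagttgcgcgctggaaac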

How the data were processed

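The authors deposited raw UMI counts per gene and barcode for each of the 3 libraries. Per the file headers they come from cellranger 6.1.1, and per the submitters' processing notes from Cell Ranger 7.0.1 with mm10. How introns, strand and barcode selection were handled is not given in these sources. If introns were counted, long genes gain counts.

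Barcodes were kept and typed as described above. UMIs were summed per library and type (12 sums, each from at least 20 nuclei; 367083 to 45768766 UMIs) and fitted with edgeR 4.0.16 in R 4.3.3: TMM factors, filterByExpr, the library as a block, 6 residual degrees of freedom, quasi-likelihood tests and Benjamini-Hochberg adjustment over 16185 genes. Standard errors were taken as the size of each log2 fold change over the root of its F statistic. Deviations of sums from their type means correlated between types of the same library (r of 0.19 to 0.79 in all 18 pairs), and these types come from the same tissue. The script was tested on simulated data for the cortical comparison (16185 genes): 53 of 100 genes changed by a log2 fold change of 0.5 and 93 of 100 changed by 1 were called, so a member not called may still differ. DESeq2 1.42.0, Scrublet in scanpy 1.11.5 (expected rate 6%; 0.56%, 2.13% and 1.45% of kept nuclei called, kept in the main analysis), RLE factors, total UMIs, no filter, thinning to 3000 UMIs and stricter gates were alternatives. Counting error limits the hypothalamic sums most.

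Members named are the 8 largest called changes per comparison at 10 CPM or more and the same direction in 3 of 3 libraries, the 2 highest of each complex, complex II and the paralog groups; others are marked. The members and lists were chosen with earlier results of these data known. Gene models are GENCODE vM21 and promoters RefSeq GRCm38.p6.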

Additional observations from a re-analysis of the deposited data

Results flagged for a closer look

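Members were also found in barcodes that no comparison uses. In barcodes under 1000 genes the summed level of the members was 5964 CPM in replicate 1 (31 barcodes, 208 member UMIs), 19994 CPM in replicate 2 (8324 barcodes, 117704 member UMIs) and 19835 CPM in replicate 3 (134 barcodes, 1726 member UMIs), above the level in each typed group of the same library. In nuclei that passed no gate it was 4128, 4849 and 4342 CPM in 668, 461 and 509 nuclei. What these barcodes hold was not tested.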

How the results depend on the processing

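The library block is part of the main design. Shares of all genes were counted for the main setting, total UMIs only and nuclei of 6000 to 15000 UMIs, and are given above. The other settings have member counts only. With no replicate block, 6 members were higher and 10 lower in cortical nuclei, 2 higher in red nucleus nuclei, and 0 higher and 3 lower in hypothalamic nuclei. With total UMIs only, 0 were higher and 72 lower in cortical nuclei, 13 higher and 2 lower in hypothalamic nuclei and 21 higher in hindbrain nuclei, and the cortical log2 fold changes of Ndufaf2 (-0.079), Atp5c1 (-0.019), Uqcrc1 (-0.086), Atp5d (-0.10), Atp5l (-0.14) and Ndufs3 (-0.031) turned negative, because the scaling shifts all cortical values. With no filter on low counts, 20 were lower in cortical, 9 lower in hypothalamic and 1 higher in hindbrain nuclei. With each nucleus thinned to 3000 UMIs, 17 were lower in cortical, 4 higher in red nucleus, and 0 higher and 1 lower in hypothalamic nuclei. In nuclei of 6000 to 15000 UMIs, an alternative chosen after seeing the data, 7 were higher and 3 lower in cortical, 4 higher in red nucleus and 0 higher in hypothalamic nuclei, the summed level was 3684 CPM in cortical and 4551 CPM in red nucleus nuclei, and the cortical log2 fold changes of Ndufa11 (0.0051), Cox4i1 (0.16) and Ndufa4 (0.093) turned positive. With doublets removed, 1 was higher in hindbrain nuclei. Leaving out 1 library gave 19 to 26 lower in cortical, 2 to 4 higher and 0 to 1 lower in red nucleus, 0 to 2 higher and 2 to 3 lower in hypothalamic, and 0 to 1 higher in hindbrain nuclei. Apart from the scaling and the fewer samples, genes or UMIs that these settings use, the cause was not tested. The alternatives were followed for 39 called results of single members, not for every call. These were the calls of members named by rule and calls that also held at 6000 to 15000 UMIs, itself 1 of the 14 alternatives. Of the 39, 3 kept direction and call under all 14 alternatives: Ndufaf2 in red nucleus and hypothalamic nuclei and Ndufb2 in cortical nuclei. A limit of 1% mitochondrial UMIs removed no typed nucleus, so that alternative could not change a result.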
